A study of Mus musculus with 15 samples.

Results

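Tuft cell genes were examined here as a group of 10 named genes, Dclk1, Trpm5, Pou2f3, Avil, Alox5ap, Ptgs1, Gfi1b, Hpgds, Il25 and Gnat3. A gene was taken from the array when a probe set of the deposited value table carried its symbol and no other. This found 9 of the 10 genes, among 19938 symbols in all. Ptgs1 was not matched and is not analysed here. Levels are log2 values as deposited, so a difference of 1 is a doubling. A gene entered the tests when its mean in at least 1 group was over 4.91, the median value of the whole table. Dclk1, Trpm5, Avil, Alox5ap, Gfi1b and Hpgds passed, and Pou2f3, Il25 and Gnat3 did not.

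The samples were isolated epithelial cells of the small intestine of adult mice. Each of 5 groups had 3 arrays, 15 in all, of the Affymetrix Mouse Gene 1.0 design. GATA4 is a zinc finger transcription factor that marks the upper small intestine and is scarce in the distal ileum, and the study altered it in both places. The groups were ileum and jejunum of wild-type CD1 mice, ileum of Gata4 conditional knockin mice (cKI), ileum labelled as adult control, and jejunum of Gata4 conditional knockout mice (cKO). The labels used here do not give the Cre driver, the deleted part of Gata4, the genotype of the control ileum or the strain of the modified mice. Nor is it stated whether each array stands for its own animal, and the p-values measure only how far these samples spread, which may be technical. With 3 arrays a group, the number of arrays limits the precision. The cKO jejunum was set against jejunum of wild-type CD1 mice, so the deletion and any difference of line or set cannot be told apart.

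Gata4 itself was read first. Its 3 levels in the wild-type ileum were 5.99, 5.43 and 5.39, and in the wild-type jejunum 9.68, 9.45 and 9.47. In the control ileum they were 6.72, 7.22 and 6.53, and in the cKI ileum 8.02, 8.43 and 8.17, a difference of 1.38 ± 0.185 (SE; limma, Benjamini-Hochberg adjusted p = 0.00453). In the arrays labelled cKO they were 9.72, 9.88 and 9.93, above the wild-type jejunum in all 3, with a difference of 0.31 ± 0.185 (limma adjusted p = 0.322). Gata4 was thus not lower where the label says it was deleted. Whether the probe set lies in the deleted part is not stated, so the group is called the jejunum labelled cKO throughout, and every direction drawn from it rests on that label. Fabp6, the ileal bile acid binding protein, did separate it, at 12.67 on average against 4.40 in the wild-type jejunum (limma adjusted p = 2.67e-11). The enterocyte list, with 10 of 10 markers tested, had 0 members called by limma between cKI and control ileum and between control and wild-type ileum, with 0 at an unadjusted p under 0.05 in both. Of all genes 0.764% and 27.9% were called in those comparisons, and 15.3% and 39.8% had an unadjusted p under 0.05. In the wild-type jejunum 1 of the 10 was higher and 2 lower than in the ileum, and in the jejunum labelled cKO 3 were higher than in the wild-type jejunum, where 21.3% and 12.8% of all genes were called.

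Tuft cells are rare chemosensory cells of the gut epithelium, with a tuft of long microvilli. They depend on the transcription factor POU2F3, sense luminal signals through a taste-like cascade that opens the channel TRPM5, make prostaglandins and cysteinyl leukotrienes, and are the main epithelial source of the cytokine IL25. That cytokine drives type 2 lymphoid cells, whose interleukin 13 in turn expands tuft and goblet cells. In RNA of a whole epithelial preparation, fewer tuft cells and less RNA per tuft cell cannot be told apart.

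Most of the members were read at low levels. Over the 15 arrays Avil ran from 5.01 to 5.94, Gfi1b from 5.47 to 5.85, Dclk1 from 4.05 to 5.27 and Alox5ap from 4.52 to 5.35. Trpm5 ran from 4.25 to 5.72 and Hpgds from 3.21 to 6.81. The means of Avil and Gfi1b were over the median of all values in all 5 groups, that of Dclk1 in 2, and those of Trpm5, Alox5ap and Hpgds in 1 each. Alox5ap passed the level filter only through the wild-type jejunum, Trpm5 only through the jejunum labelled cKO and Hpgds only through the control ileum, the group where each was highest.

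**Figure D1:**
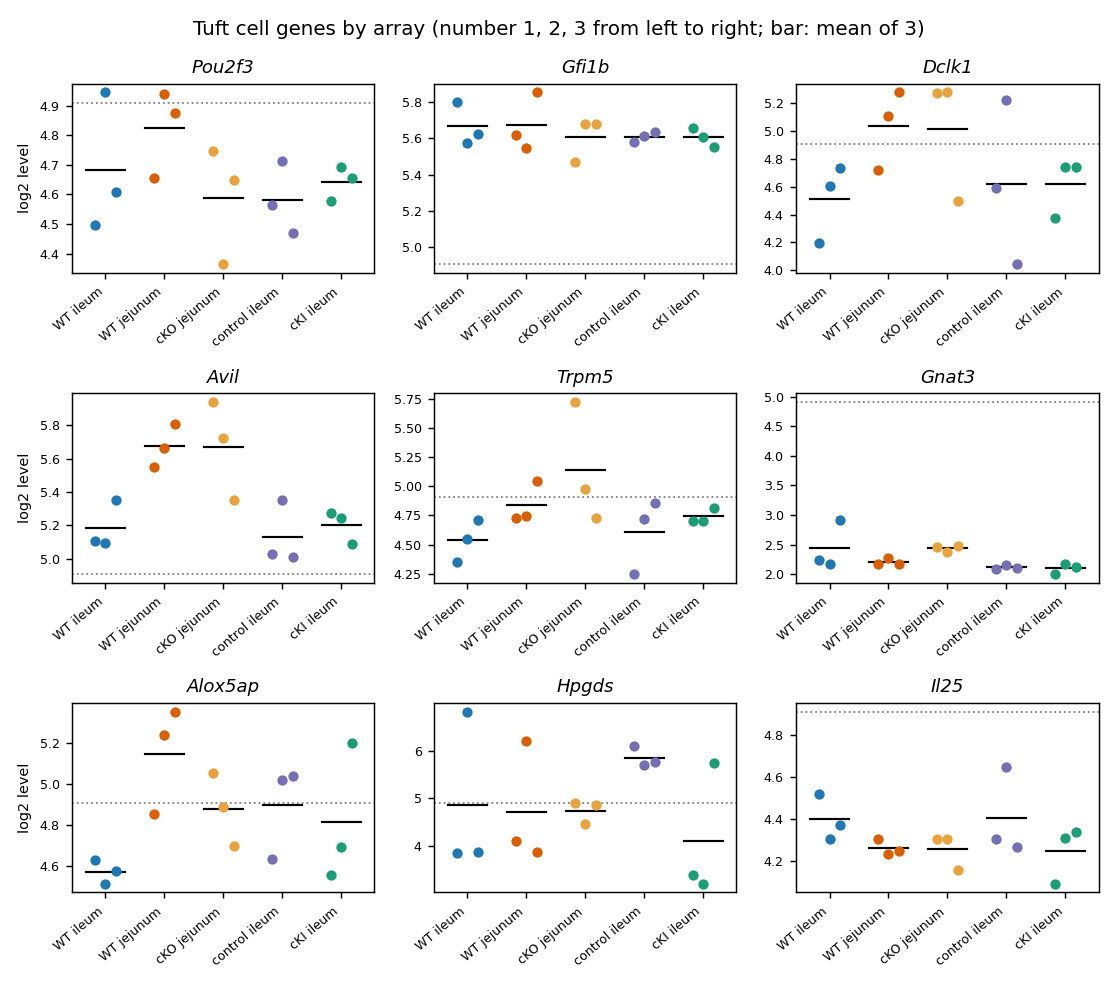
Levels (log2, as deposited) of the 9 matched members, 1 point for each array in each of the 5 groups, with the bar at the mean of 3 arrays and the dotted line at the level filter, 4.91. Avil is higher in both groups of jejunum than in the 3 groups of ileum but for 1 array labelled cKO at 5.35, and Hpgds spreads by more than 2 log2 units within 3 of the groups.

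Avil encodes advillin, an actin-bundling protein of tuft cell microvilli. Its levels were 5.11, 5.09 and 5.35 in the wild-type ileum and 5.55, 5.66 and 5.81 in the wild-type jejunum. The jejunal arrays were all above the ileal arrays. The difference was 0.49 ± 0.147 (SE, n = 3 and 3; 95% interval 0.18 to 0.81), a 1.41-fold higher level in the jejunum (limma adjusted p = 0.0261). Leaving out 1 array ended the call in 4 of 6 cases, with adjusted p of 0.0684 and 0.0911 without jejunal replicates 2 and 3, and 0.085 and 0.0898 without ileal replicates 1 and 2. In the jejunum labelled cKO Avil was at 5.94, 5.72 and 5.35, on both sides of the wild-type jejunum, and the difference was -0.0042 ± 0.147 (95% interval -0.32 to 0.31; limma adjusted p = 0.992). The control ileum gave 5.03, 5.35 and 5.01 and the cKI ileum 5.28, 5.24 and 5.08, which overlapped. Their difference was 0.07 ± 0.147 (95% interval -0.24 to 0.39; limma adjusted p = 0.857). In the order of group means the wild-type jejunum came first at 5.67 and the control ileum last at 5.13. The gap of 0.47 between the jejunum labelled cKO and the cKI ileum was the one gap between neighbours larger than the SD of both.

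The start of Avil is shown because it is the called member whose promoter is in the RefSeq table, GRCm38.p6, which holds 7 of the 10 members. The window covers 250 bases before to 50 after the start of the gene, chr10:127000459-127000758 on the plus strand, and capitals mark 2 searched motifs. These are ATGCAAA, the core bound by POU factors such as POU2F3, and the GATA motif, looked for as AGATAA or TGATAA and as AGATAG or TGATAG. Both strands were searched.
Avil: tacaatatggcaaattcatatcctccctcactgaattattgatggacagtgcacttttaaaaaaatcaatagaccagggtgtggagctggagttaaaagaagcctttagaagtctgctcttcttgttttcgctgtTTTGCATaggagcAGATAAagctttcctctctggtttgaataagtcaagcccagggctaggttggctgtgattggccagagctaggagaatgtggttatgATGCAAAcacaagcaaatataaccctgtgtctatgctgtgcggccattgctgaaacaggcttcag
The POU core begins 115 bases before the start of the gene, there on the opposite strand, and again 15 bases before it on the gene's own strand. The GATA motif lies between them, beginning 102 bases before the start. Of 32851 windows of this length, 4.63% held the POU core and 29.8% a GATA motif on either strand. Of the other members in the table, Hpgds held the POU core, 174 bases before its start, and Gfi1b and 1 window of Dclk1 held a GATA motif. These are matches of letters, and no binding was measured.

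Dclk1 encodes a microtubule-associated kinase used as a marker of tuft cells. It was at 4.20, 4.60 and 4.73 in the wild-type ileum and 4.72, 5.11 and 5.27 in the wild-type jejunum, where the lowest jejunal array lay within the ileal range. The difference was 0.52 ± 0.272 (95% interval -0.06 to 1.1) and did not pass the test (limma adjusted p = 0.205). The numbers paired these samples by the check described under the processing. With the replicate number as a block within the 6 arrays it passed, at a limma adjusted p of 0.00768, and with a block over all 15 arrays it did not, at 0.18. In the jejunum labelled cKO it was at 5.27, 5.27 and 4.50, with 1 array below and the others near the top of the wild-type jejunum (difference -0.02 ± 0.272; limma adjusted p = 0.976). Control ileum gave 4.59, 5.22 and 4.05, the widest spread of the gene in any group, and cKI ileum 4.38, 4.74 and 4.74. Those means differed by 0.00038. No gap between neighbouring group means of Dclk1 was larger than the SD.

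Trpm5 encodes the calcium-activated cation channel at the end of the taste cascade. Wild-type ileum had 4.35, 4.55 and 4.71 and wild-type jejunum 4.72, 4.75 and 5.04, which just did not overlap. The difference was 0.30 ± 0.214 (95% interval -0.16 to 0.76; limma adjusted p = 0.378) and did not pass. The 3 arrays labelled cKO stood at 5.72, 4.97 and 4.72, and the first of them was the highest of all 15. Against the wild-type jejunum they differed by 0.30 ± 0.214 (limma adjusted p = 0.418). Control ileum at 4.25, 4.72 and 4.85 enclosed the cKI ileum at 4.71, 4.71 and 4.81. Gnat3, the taste G protein alpha subunit gustducin, was below the level filter throughout, from 2.01 to 2.92. Its highest array was wild-type ileum replicate 3, and its 3 levels in the jejunum labelled cKO, 2.47, 2.37 and 2.47, were above all 3 of the wild-type jejunum, 2.17, 2.27 and 2.17. In a fit without the level filter none of the 4 comparisons called it (limma adjusted p = 0.177 to 0.987).

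Alox5ap encodes the 5-lipoxygenase activating protein, which hands arachidonic acid to the first enzyme of leukotriene synthesis. The wild-type ileum was at 4.63, 4.52 and 4.58 and the wild-type jejunum at 4.85, 5.23 and 5.35, without overlap. The difference was 0.57 ± 0.174 (95% interval 0.20 to 0.94), 1.49-fold (limma adjusted p = 0.0294). Leaving out any ileal array, or jejunal replicate 2 or 3, ended the call, with adjusted p from 0.057 to 0.11, and without jejunal replicate 1 it was 0.0142. Because the gene entered the tests through the jejunal mean alone, the fit without a level filter bears on it, and there the adjusted p was 0.0428. In the jejunum labelled cKO its levels were 5.05, 4.89 and 4.70, within or below the wild-type jejunal range (difference -0.27 ± 0.174; 95% interval -0.64 to 0.11; limma adjusted p = 0.376). The control ileum, at 4.64, 5.02 and 5.04, was above the wild-type ileum in all 3 arrays, and that difference of 0.32 ± 0.174 did not pass (limma adjusted p = 0.183). The cKI ileum, at 4.56, 4.69 and 5.20, overlapped the control.

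Hpgds encodes the hematopoietic prostaglandin D synthase, which mast cells and other leukocytes make as well as tuft cells. No other member varied as much between arrays of 1 group. Replicate 2 was at 6.81 in the wild-type ileum and at 6.19 in the wild-type jejunum, while the other 4 wild-type arrays lay from 3.86 to 4.11. The control ileum was high in all 3 arrays, at 6.10, 5.69 and 5.76. The cKI ileum was at 3.40, 3.21 and 5.73, so that 2 of its arrays lay far below the control and the third within its range. The difference of -1.74 ± 0.781 (95% interval -3.4 to -0.069) had an unadjusted p of 0.0423 and did not pass (limma adjusted p = 0.315). In the jejunum labelled cKO it was at 4.89, 4.46 and 4.85, between the extremes of the wild-type jejunum.

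Pou2f3, the transcription factor that tuft cells require, was below the level filter in every group. It ran from 4.36 in the jejunum labelled cKO, replicate 2, to 4.94 in wild-type ileum replicate 2. Its highest group mean was 4.82 in the wild-type jejunum and its lowest 4.58 in the control ileum, and no gap between neighbouring means was larger than the SD. Without the filter its 4 differences were between -0.24 and 0.14 and none was called (limma adjusted p = 0.348 to 0.954). Gfi1b, a zinc finger repressor found in tuft cells and in platelet and red cell precursors, had the narrowest range among the tested members. It was at 5.80, 5.58 and 5.62 in the wild-type ileum and 5.62, 5.55 and 5.85 in the wild-type jejunum, and its largest difference in any comparison was -0.06 ± 0.105.

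Il25, the cytokine by which tuft cells signal to type 2 lymphoid cells, was also below the filter. Its 15 levels lay between 4.09, in cKI ileum replicate 1, and 4.65, in control ileum replicate 2. The wild-type ileum, at 4.52, 4.30 and 4.37, and the wild-type jejunum, at 4.30, 4.23 and 4.24, touched at 4.30. Without the filter its differences ran from -0.16 to 0.0076 and none was called (limma adjusted p = 0.573 to 0.987).

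Between wild-type jejunum and ileum, then, 2 of the 6 tested members were called higher, Avil and Alox5ap, and 0 lower by limma, with the same 2 genes at an unadjusted p under 0.05. Of all 11784 genes tested, 21.3% were called in this comparison, 13.4% were called higher and 32.1% had an unadjusted p under 0.05. Dclk1 and Trpm5 were higher on average without passing, with 3 of the 6 members not overlapping and higher, against 22.2% of all genes. Since 3 of the 6 had entered the tests through the 1 group where they were highest, no share is drawn from this count.

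**Figure D2:**
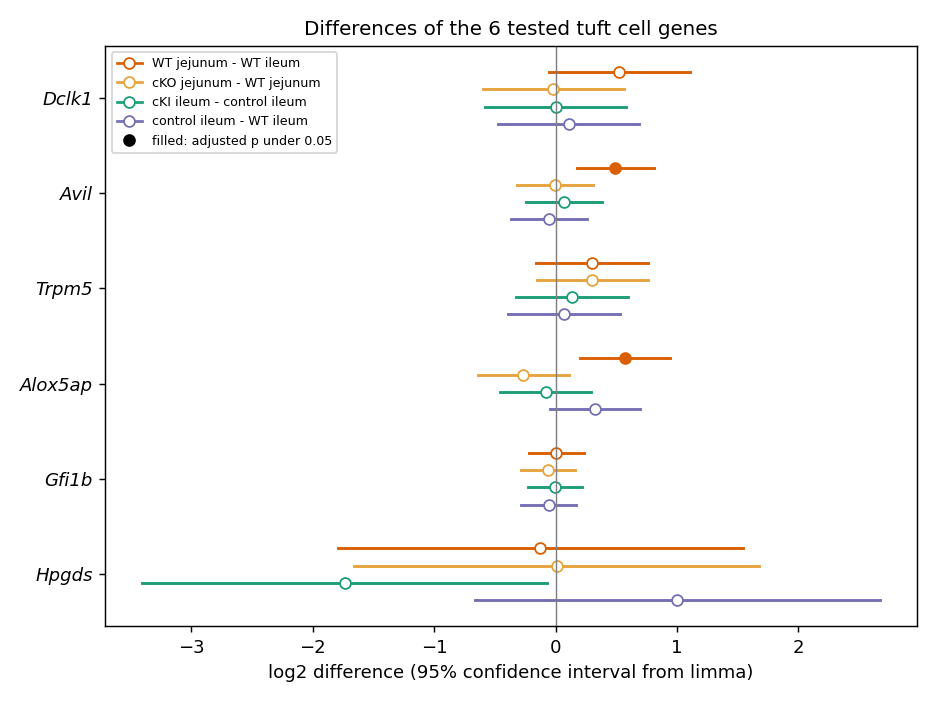
Differences in level (log2) of the 6 tested members in the 4 comparisons, with 95% intervals from the limma fit over 15 arrays and filled points where the adjusted p was under 0.05. The intervals of Avil and Alox5ap between wild-type jejunum and ileum lie above 0, as no other member's do there, and that of Hpgds between cKI and control ileum ends at -0.069, an unadjusted p that did not survive adjustment.

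Between cKI and control ileum, limma called 0 of the 6 members, where it called 0.764% of all genes (0.339% higher and 0.424% lower). An unadjusted p under 0.05 was found for 1 of the 6, Hpgds, and for 15.3% of all genes. Hpgds had entered the tests only through the control ileum. The Gata4 difference between cKI and control ileum was called, as given above. Between the jejunum labelled cKO and the wild-type jejunum limma called 0 of 6, against 12.8% of all genes, with 0 at an unadjusted p under 0.05, against 25.5% of all genes. This comparison and the regional one share the wild-type jejunum. Side by side, the regional and the cKO differences were 0.49 and -0.0042 for Avil, 0.57 and -0.27 for Alox5ap, 0.52 and -0.02 for Dclk1, and 0.30 and 0.30 for Trpm5. The 95% interval for Avil in the jejunum labelled cKO, -0.32 to 0.31, does not reach the estimated size of the regional difference, and that for Alox5ap, -0.64 to 0.11, does. The regional differences have intervals of their own, and the regional and cKO differences were not tested against each other.

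The labels do not say how the control ileum differs from that of wild-type CD1 mice, and the arrays of these groups differed widely. Limma called 27.9% of all genes there and 0 of the 6 members, with 0 at an unadjusted p under 0.05, against 39.8% of all genes. Alox5ap was the 1 member that did not overlap and was higher, against 29.4% of all genes. Hpgds differed by 1.0 ± 0.781 (95% interval -0.67 to 2.67; limma adjusted p = 0.368). Gata4 itself was called higher in the control ileum than in the wild-type ileum, by 1.22. That call held in all 16 alternatives (limma adjusted p from 4.69e-05 to 0.0186).

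Within groups, some members moved together from array to array. With the group means taken off, the correlation over the 15 arrays was 0.76 between Dclk1 and Avil, 0.69 between Trpm5 and Avil and 0.60 between Trpm5 and Alox5ap. The other pairs of these 4 genes were at 0.40 for Dclk1 and Alox5ap, 0.39 for Dclk1 and Trpm5 and 0.32 for Avil and Alox5ap. Hpgds was at 0.30 with Alox5ap, 0.11 with Dclk1, -0.02 with Trpm5 and -0.31 with Avil. Gfi1b was between -0.27 and -0.015 with the 4 genes, and at -0.60 with Hpgds. Control ileum replicate 2 was the highest control array for Dclk1 (5.22) and Avil (5.35). Among the arrays labelled cKO, replicate 1 was the highest for Trpm5, Avil and Alox5ap and replicate 3 the lowest for these and for Dclk1. The points share the array, and so its signal at low levels. The median of the 8154 genes below the level filter was highest of all arrays in cKO replicate 1 (3.70) and lowest in cKO replicate 3 (3.46), in the same order as the 3 tuft genes. In wild-type jejunum replicate 3 (3.567) and control replicate 2 (3.55) it was highest of the group, as Dclk1 was. In the wild-type ileum it fell, at 3.598, 3.554 and 3.545 in replicates 1 to 3, while Trpm5 and Dclk1 rose. The part of this median in the result was not tested.

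The tested gene most like the 6 members by mean correlation over the 15 arrays, group means off, was Sh2d6, with 0.49, of 11778 genes ranked. Sh2d6 is an adaptor protein gene known from tuft cell signatures, and it was 1 of 73 further tuft genes listed for this work. Its correlation was 0.74 with Dclk1, 0.78 with Trpm5, 0.80 with Avil and 0.73 with Alox5ap, and -0.12 with Gfi1b and -0.004 with Hpgds. The other 9 of the first 10 were Metrn, Prp2, Cnfn, Tpbgl, Cfap57, Epn2, Btnl9, Pth2 and Gpbar1, with mean correlations of 0.46 to 0.47 and no place on the list. Of the 41 listed genes ranked, Kctd12 and Siglecf came next, at ranks 18 and 67, while 20 had a negative mean correlation, down to Il33 at rank 10457. These correlations describe the arrays and carry no test.

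Sh2d6 was at 4.85, 4.85 and 4.96 in the wild-type ileum and at 5.15, 5.42 and 5.56 in the wild-type jejunum, without overlap. The difference of 0.49 ± 0.203 was close in size to that of Avil and did not pass (limma adjusted p = 0.106). In the control ileum it was at 4.83, 5.66 and 5.21 and in the jejunum labelled cKO at 5.91, 5.60 and 5.16. The high array of each group, control replicate 2 and cKO replicate 1, was also the highest of its group for Avil.

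**Figure D3:**
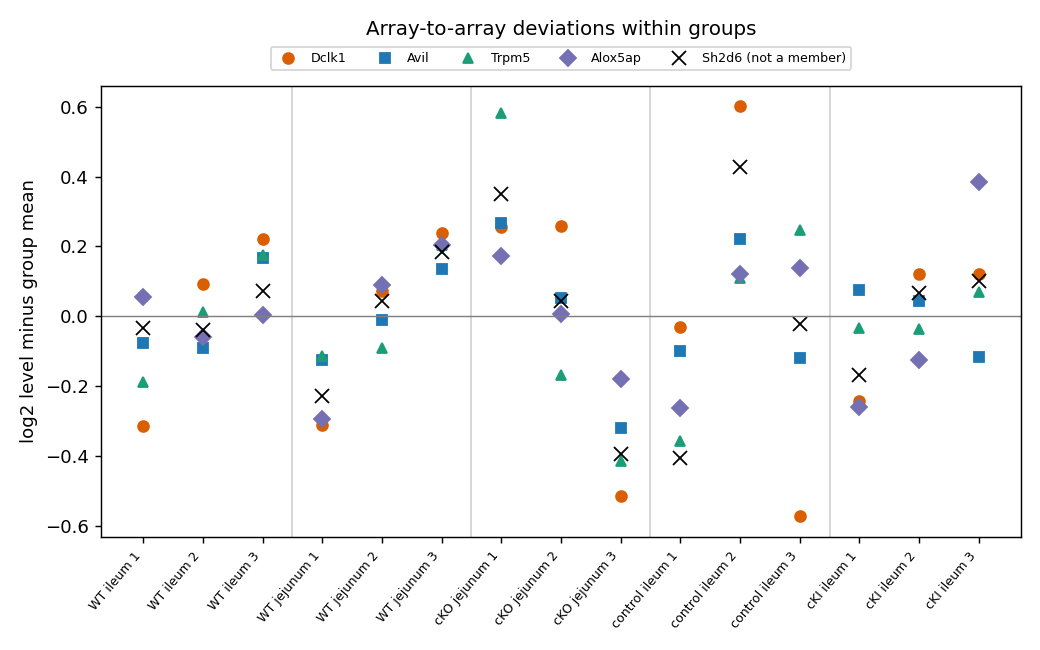
Level minus group mean (log2) on each of the 15 arrays for Dclk1, Avil, Trpm5, Alox5ap and Sh2d6, 1 point for each gene and array. All 5 genes are above 0 in cKO replicate 1, control replicate 2 and replicate 3 of wild-type ileum and of wild-type jejunum. All 5 are below it in cKO replicate 3 and in replicate 1 of wild-type jejunum and of control ileum.

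The 73 further genes, in 5 lists by role, had 70 with a probe set of their own and 41 past the level filter. Several of them are made by other cells too, such as Krt18 and Sox9 in other epithelial cells and Ptprc in leukocytes. Between wild-type jejunum and ileum 5 were called higher and 7 lower of the 41, where 13.4% of all genes were higher and 7.91% lower, and their median difference was -0.13 against 0.004 for all genes. The eicosanoid list had 2 higher and 1 lower of 4, the cytokine and receptor list 1 higher of 4, and the list of structural and other genes 2 higher and 4 lower of 22. Of the taste signalling list 1 of 3 was lower, Itpr3, the IP3 receptor of the cascade, at -0.61 (limma adjusted p = 3.16e-04). Of the lineage factors 1 of 8 was lower, Sox9, at -0.42 (limma adjusted p = 0.0136), a call lost without wild-type ileum replicate 2 (0.0664).

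Ltc4s and Il33 had the largest differences of these. Ltc4s encodes leukotriene C4 synthase, downstream of ALOX5AP in the same pathway. It was at 4.91, 4.88 and 4.66 in the wild-type ileum and 6.80, 6.82 and 6.49 in the wild-type jejunum, a difference of 1.89 ± 0.151 (limma adjusted p = 5.44e-07). The arrays labelled cKO lay between them at 5.51, 5.32 and 5.85, below every wild-type jejunal array, and the difference from that jejunum was -1.14 ± 0.151 (limma adjusted p = 1.40e-04). Control ileum at 4.64, 5.05 and 4.75 and cKI ileum at 4.70, 4.92 and 4.69 overlapped, with a difference of -0.05 ± 0.151 (limma adjusted p = 0.916). Ltc4s and Alox5ap were both higher in the wild-type jejunum than in the wild-type ileum, and of the pair only Ltc4s was called in the jejunum labelled cKO. Whether their differences there differ from each other was not tested. By likeness to the members Ltc4s was at rank 8427 of 11778, with a mean correlation of -0.17, and which cells gave its signal was not tested.

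Il33 encodes an alarmin that acts on the same type 2 lymphoid cells as IL25, and is made by many epithelial and stromal cells. Wild-type ileum was at 4.93, 4.91 and 4.58 and wild-type jejunum at 8.33, 7.75 and 7.30, a difference of 2.99 ± 0.30 (limma adjusted p = 4.37e-06). The jejunum labelled cKO fell to 5.62, 4.80 and 5.98, by 2.33 ± 0.30 (limma adjusted p = 1.12e-04). The control ileum was at 4.03, 4.28 and 4.22 and the cKI ileum at 5.41, 6.22 and 5.35, all 3 higher, by 1.48 ± 0.30 (limma adjusted p = 0.0377). Leaving out any 1 of these 6 arrays ended that call, with adjusted p from 0.061 to 0.0916.

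**Figure D4:**
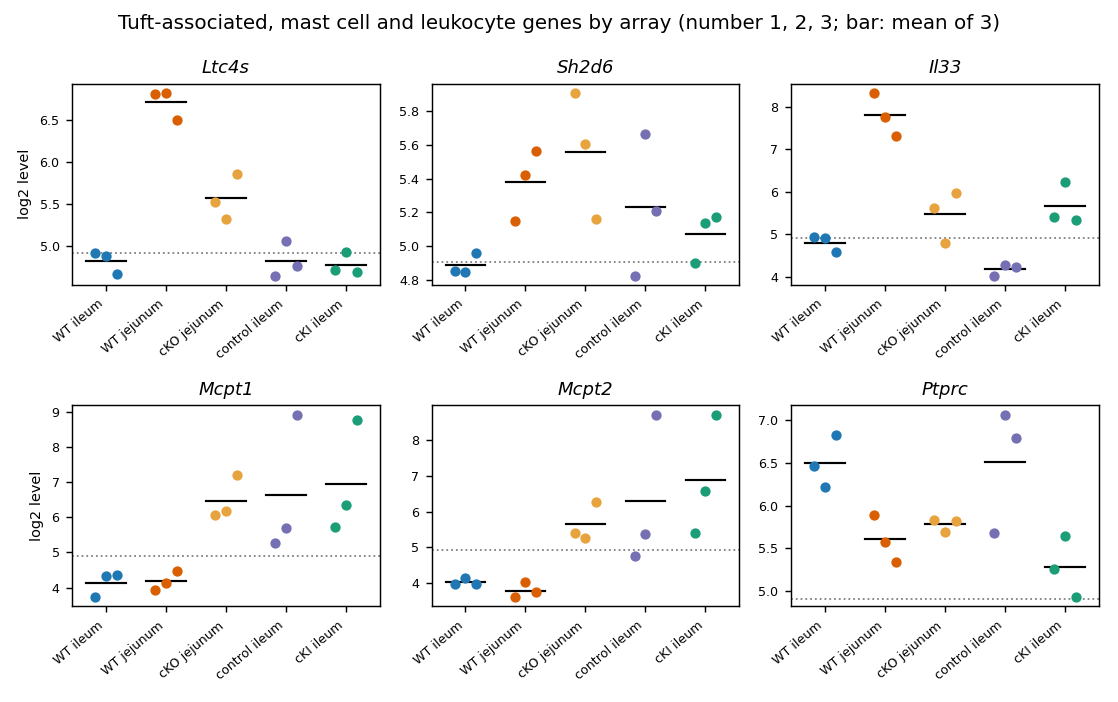
Levels (log2, as deposited) of Ltc4s, Sh2d6, Il33, Mcpt1, Mcpt2 and Ptprc, 1 point for each array in each of the 5 groups, with the bar at the mean of 3 arrays and the dotted line at the level filter. Ltc4s and Il33 are high in the wild-type jejunum and lower in every array labelled cKO, and Mcpt1 reaches 8.92 in 1 control and 8.76 in 1 cKI array.

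Other genes of the lists were called in 1 or more comparisons. In the eicosanoid list, Ptges2, a prostaglandin E synthase, was higher in the wild-type jejunum by 0.39 (limma adjusted p = 0.0253) and Pla2g4a, the phospholipase that frees arachidonic acid, lower, at -0.65 (limma adjusted p = 0.0367). Both calls were lost without single arrays, in 4 of 6 cases for Ptges2 (adjusted p up to 0.0986) and 5 of 6 for Pla2g4a (up to 0.161). Of the structural list, Inpp5j (-1.42), a phosphoinositide phosphatase, Krt18 (-0.98), a keratin, and Rgs2 (-1.28), a regulator of G protein signalling, were lower in the wild-type jejunum, and Il10rb (0.80), a cytokine receptor chain, was higher. The largest limma adjusted p of these 4 was 3.38e-04.

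Between the jejunum labelled cKO and the wild-type jejunum 3 of the 41 were called higher and 3 lower, against 5.17% and 7.65% of all genes. Besides Ltc4s and Il33, Krt18 (0.87; limma adjusted p = 3.04e-05) and Inpp5j (1.01; 5.22e-05) were higher and Il10rb was lower (-0.67; 0.00271). Sox9 was higher by 0.38 (limma adjusted p = 0.0354), and lost its call in 5 of 6 cases without 1 array, with the replicate block (0.177) and with the 6 arrays alone (0.11). Between cKI and control ileum Il33 was the 1 gene of 41 called higher and 0 were called lower by limma. An unadjusted p under 0.05 was found for 11 of the 41 (26.8%), against 15.3% of all genes. Without overlap 1 of the 41 was higher and 11 were lower, against 1551 and 911 of 11784 genes. The median difference of the 41 was -0.10, against 0.032 for all genes. Between control and wild-type ileum 5 were higher and 3 lower, against 19.3% and 8.61% of all genes. Rgs2 (0.89), Krt18 (0.39), Il13ra1 (0.60), an interleukin 13 receptor chain, Ptges2 (0.51) and Ascl2 (0.44), a stem cell factor, were the 5, with limma adjusted p up to 0.0218. Itpr3 (-0.57), Il10rb (-0.51) and Sox4 (-0.91), a transcription factor of early tuft cells, were the 3, with limma adjusted p up to 0.00937. Ascl2 lost its call without control replicate 2 (0.0883) and without wild-type ileum replicates 1 (0.0592) and 3 (0.0786).

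Of 11 listed genes that interleukin 13 raises in the epithelium, 7 were measured and tested. In the wild-type jejunum 0 were higher and 3 lower than in the ileum, against 13.4% and 7.91% of all genes. The 3 were Gsdmc2 (-2.02), a gasdermin, and the goblet genes Muc2 (-0.94) and Clca1 (-0.64), with limma adjusted p up to 0.00103. In the jejunum labelled cKO 4 were higher and 1 lower than in the wild-type jejunum, against 5.17% and 7.65% of all genes. Gsdmc4 led at 3.08 (limma adjusted p = 0.00527), with Gsdmc2 at 2.34 (2.95e-05) and Clca1 at 0.70 (0.00103), and Ang4, an antimicrobial ribonuclease, was lower at -1.49 (1.3e-04). Muc2 was the other gene called higher, at 0.41, and lost its call in 8 of 16 alternatives. Clca1 and Muc2 are on the goblet list too, whose count in this comparison is given below. In the cKI ileum Gsdmc2 was higher than in the control by 1.25 (limma adjusted p = 0.0428) and Clca1 lower, at -0.74 (0.0141). The Gsdmc2 call there was lost in 4 of 6 cases without 1 array, with adjusted p up to 0.177, without a level filter (0.0511) and with the 6 arrays alone (0.0947). That of Clca1 was lost with the 6 arrays alone (0.0542). Between control and wild-type ileum limma called 0 of 7, with 1 at an unadjusted p under 0.05, against 27.9% and 39.8% of all genes. Retnlb, a goblet cell product raised by interleukin 13, was at 10.88 in wild-type ileum replicate 2 and 8.55 in wild-type jejunum replicate 2, the wild-type arrays with high Hpgds, against 3.85 to 6.58 in the other wild-type arrays. Outside the wild type the levels parted. In cKI replicate 2 Retnlb was at 10.02 with Hpgds at 3.21, its lowest of all arrays, and in control replicates 1 and 2 Retnlb was at 4.02 and 3.22 with Hpgds at 6.10 and 5.69.

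Markers of other cells moved with several of these comparisons, and their part in the results was not tested. Stromal markers were lower in the wild-type jejunum than in the ileum in 8 of 12 tested, led by Pdgfrb (-0.75; limma adjusted p = 6.69e-04) and Col3a1 (-0.72; 9.07e-04), and goblet markers in 7 of 8, where 7.91% of all genes were called lower. T and NK markers were called in 0 of 7 by limma there, with 0 at an unadjusted p under 0.05, against 32.1% of all genes. B and plasma cell markers were called lower in 2 of 6, with a median of -1.07. All 6 were lower without overlap, as 2126 of 11784 genes were. Enteroendocrine markers, of other secretory cells, were higher in 2 of 8, against 13.4% of all genes. Between cKI and control ileum, T and NK markers were called in 0 of 7, against 0.764% of all genes. All 7 had an unadjusted p under 0.05 by limma, against 15.3% of all genes, with a median difference of -1.17. Stromal markers were called lower there in 3 of 12, with a median of -0.81, and B and plasma cell markers in 1 of 6, with a median of -0.91, against 0.424% of all genes. In the jejunum labelled cKO goblet markers were called higher than in the wild-type jejunum in 5 of 8, against 5.17% of all genes. Stromal markers were higher in 1 of 12 and mast and basophil markers in 1 of 3. All 3 of the latter were higher without overlap, against 1334 of 11784 genes. Of these 3, Mcpt1 and Mcpt2 had entered the tests only through the control, cKI and cKO groups, where they were high, so no share is drawn from this count. T and NK markers were called in 0 of 7 and B and plasma cell markers in 0 of 6 between the jejunum labelled cKO and the wild-type jejunum, against 12.8% of all genes. Between control and wild-type ileum, T and NK markers were called higher in 2 of 7, with 6 at an unadjusted p under 0.05 by limma, against 39.8% of all genes. Stromal markers were higher in 4 of 12 and lower in 1, and goblet markers higher in 4 of 8 and lower in 2. Enteroendocrine markers were higher in 3 of 8 and B and plasma cell markers in 1 of 6. Of all genes 19.3% were called higher there and 8.61% lower. Control replicate 2, high for Dclk1, Avil and Sh2d6, was also the highest control array for the leukocyte genes Ptprc (7.07) and Cd3e (8.20). It was the highest of all 15 arrays for the stromal genes Acta2 (9.02) and Vim (8.41) as well.

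Mast cells make both Hpgds and Alox5ap. The mast and basophil list, 3 of 10 past the filter, had a mean level per array of 3.91 to 3.98 in the wild-type ileum and 3.77 to 3.82 in the wild-type jejunum. It reached 4.02 to 5.07 in the control ileum, 4.09 to 5.08 in the cKI ileum and 4.32 to 4.58 in the jejunum labelled cKO. Of the 3 genes past the filter, Mcpt1 and Mcpt2 lay above every wild-type array in these groups. Kit lay within its wild-type range, 6.28 to 7.52. Below the filter, Cpa3 reached 4.77 in the control ileum, while Tpsb2 was lower there than in every wild-type ileal array. The list mean thus does not stand for all its genes. Mcpt1, a protease of mucosal mast cells, was at 5.27, 5.70 and 8.92 in the control ileum and 5.72, 6.34 and 8.76 in the cKI ileum, and from 3.73 to 4.48 in the 6 wild-type arrays. The cKI array with 8.76 was the one with the highest Hpgds (5.73) and Alox5ap (5.20) of its group. In the control ileum the array with 8.92 had Hpgds at 5.76 and the highest Alox5ap of its group, 5.04. The highest Hpgds there, 6.10, and the lowest Alox5ap, 4.64, were in the array with the lowest Mcpt1. Among the arrays labelled cKO the one with the highest Mcpt1, 7.19, had the lowest Alox5ap, 4.70. The wild-type ileal array with Hpgds at 6.81 had Mcpt1 at 4.32, and the jejunal array with Hpgds at 6.19 had it at 4.12.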

How the data were processed

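Per the labels, RNA of isolated epithelial cells was purified with Qiagen RNeasy Mini kits and labelled by the Affymetrix whole transcript sense method. The deposited values are log2 levels that the authors made in Partek, whose version and normalization are not given in the sources used here. Array medians lay between 4.82 and 5.0. Of 35556 probe sets 21789 carried 1 symbol, and the one with the highest mean was kept for each symbol. A linear model of the 15 arrays with 1 mean a group was fitted by limma 3.58.1 (R 4.3.3) and moderated with eBayes, leaving 10 residual degrees of freedom, two-sided, with Benjamini-Hochberg adjustment over the 11784 genes tested and a threshold of 0.05. The code was tested on simulated data.

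Same-numbered arrays deviated together in wild-type jejunum and ileum (r 0.334, 0.216 and 0.161) and in cKI and control ileum (0.128, 0.177 and 0.258), each over the pairing limit of 0.1, and not in the other comparisons. The labels give no source of the pairing, so the replicate block is an alternative. Others were quantile normalization, centring, level filters, array weights, a trended prior, probe set means, the 6 arrays alone and leaving out each array.

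Named are the 10 members, Gata4, up to 4 called genes of each tuft and interleukin 13 list and up to 2 of each other list by smallest p, and the 10 most alike genes. Cd3e, Ptprc, Retnlb, Fabp6, Acta2, Vim, Kit, Cpa3, Tpsb2 and ranks past 10 were added after their values were seen. The members and lists were chosen with earlier results of these data known. Ptgs1, and the promoters of Alox5ap, Pou2f3 and Il25, are not analysed here.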

Additional observations from a re-analysis of the deposited data

How the results depend on the processing

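Avil and Alox5ap kept their call between wild-type jejunum and ileum under every alternative that tested them other than leaving out arrays (limma adjusted p 0.011 to 0.0401 and 0.0052 to 0.0428), and the stricter level filter removed Alox5ap, leaving 1 member called. Leaving out 1 array gave 0 to 2 members called higher there and 3 to 5 further tuft genes called higher. In the other comparisons it gave, between cKI and control ileum, 0 to 0 further tuft genes higher, 0 to 4 lower and 20 to 192 of all genes called. It gave 990 to 1557 of all genes in the jejunum labelled cKO, and 4 to 9 further tuft genes higher between control and wild-type ileum. Array weights gave, between wild-type jejunum and ileum, 9 further tuft genes higher, 12 lower and 3967 of all genes called. They gave 6 further tuft genes lower and 766 of all genes between cKI and control ileum, and 1 member higher, Alox5ap, between control and wild-type ileum. Between cKI and control ileum the 6 arrays alone gave 0 further tuft genes higher and 21 of all genes called, and no level filter gave 52 of all genes. Quantile normalization gave 5 further tuft genes higher in the jejunum labelled cKO.

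No member whose sign turned was called in either fit. With quantile normalization and with centring, the cKO difference became 0.025 and 0.010 for Dclk1 and 0.049 and 0.026 for Avil, and the cKI difference of Gfi1b 0.015 and 0.030. With array weights, Gfi1b became -0.026 between wild-type regions, 0.0094 for cKI and 0.027 for cKO, Hpgds 0.74 between regions and -0.51 for cKO, and Dclk1 -0.26 between control and wild-type ileum. Without 1 array, between wild-type regions Gfi1b ran from -0.085 to 0.072 and Hpgds from -0.86 to 0.85. For cKI, Dclk1 ran from -0.29 to 0.30, Trpm5 from -0.045 to 0.26, Alox5ap from -0.27 to 0.047 and Gfi1b from -0.030 to 0.024. For cKO, Dclk1 ran from -0.18 to 0.24, Avil from -0.14 to 0.16, Gfi1b from -0.12 to 0.029 and Hpgds from -0.41 to 0.75. Between control and wild-type ileum, Dclk1 ran from -0.19 to 0.39, Trpm5 from -0.056 to 0.25, Avil from -0.16 to 0.031 and Gfi1b from -0.10 to 0.0093. The causes were not tested.

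The replicate block within sets, where the numbers paired wild-type jejunum and ileum, called 3 members higher, with Dclk1 the added one, 7 further tuft genes higher and 8 lower, and 2757 of all genes. Svil lost its call there (limma adjusted p = 0.079). Between control and wild-type ileum, whose numbers did not pair, the block gave 2109 of all genes called and Krt18 an adjusted p of 0.0558. In the jejunum labelled cKO it ended the calls of Sox9 (0.177) and Muc2 (0.129). A replicate block over all arrays gave 0 further tuft genes higher between cKI and control ileum and an adjusted p of 0.18 for Dclk1 between wild-type regions and of 0.0519 for Sox9 in the jejunum labelled cKO. The block changed no other call of a member.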
